A study of Mus musculus with 4 samples.

Results

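Macrophages of melanomas grown from a pair of resistant lines that both keep the cyclooxygenase genes were compared within each macrophage type, RTT_ROSA26 against RTT. The cells were those that the authors named TAM_C1q, TAM_Spp1, TAM_cycling, Ctsk_Macro or Macro in these samples, 12882 of the 33368 cells of the series. They made up 6770 of 7970 cells in RTT and 6112 of 6836 cells in RTT_ROSA26. For each type and sample the unique molecular identifiers (UMIs, each standing for 1 captured transcript) were summed over cells and divided by the total of all genes, giving counts per 1e+06 UMIs (CPM). The genes described in depth belong to stress, cell cycle, cytokine and lysosome lists.

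Tumours were YUMM1.7 mouse melanomas (with Braf V600E and Cdkn2a-/- among their alleles) that express ovalbumin, grown in Rag2-/- mice, which have no T or B cells of their own, and age was matched within the experiment and is stated by the study only as a range shared by all its strains. Activated OT-1 T cells, specific for ovalbumin, were transferred on day 7, and the tumours were taken on day 10, 72 h later. RTT came from the line labelled Y1.7_RTT_2B12, resistant to targeted therapy with the BRAF inhibitor dabrafenib. RTT_ROSA26 came from the line labelled Y1.7_RTT_ROSA26, which by the study's methods carries a guide against the Rosa26 safe-harbour locus and derives from a clone with inducible Cas9, so the lines differ in selection history as well as in the guide. Whether that clone derives from the line of RTT is not given in the sources used here. CD45+ living cells were sorted, so shares of cells are set in part by that gate. The labels give 1 tumour per condition, whereas legends of the study describe pooled tumours, and this was not settled here. Line, mouse and sample cannot be told apart.

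Each side is 1 sample, so no difference below has a replicate check, no test was made, and no p-value is given. The samples were tagged with multiplexing oligos, pooled and loaded 3 times on the droplet chip, and values per load are given as technical spread. A load holds other cells of the same sample, so the spread over loads and the 95% intervals of the counts cover sampling of cells and molecules, not variation between mice. All samples shared the droplets of a load, so RNA released into a load could enter the droplets of any of them. A log2 ratio is that of CPM + 1, RTT_ROSA26 against RTT, and is positive where RTT_ROSA26 was higher. Past 2-fold means a log2 ratio of at least 1 or at most -1, counted over genes that reached 50 CPM in the higher sample, and within a gene list over the members that averaged 10 CPM or more. Where a pair of values is given without names, RTT comes first. Levels in RTT_PTGS12KO (Ptgs1 and Ptgs2 knocked out in the cancer cells) and NTT (naive to the therapy) are given for a few genes as context only.

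Macrophages take up debris and pathogens, digest them in lysosomes filled with acid hydrolases, and release cytokines and chemokines that recruit and instruct other leukocytes. Immediate early genes such as Fos and Egr1 respond to stimulation within minutes, and can also be induced when tissue is digested to free the cells. Interferons induce a set of antiviral and antigen-presenting genes in macrophages, in part through the transcription factor IRF1. Tumour macrophages are known to divide locally as well as to arise from monocytes.

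Depth per type and sample ran from 1026420 UMIs in Macro of RTT to 49512753 UMIs in TAM_C1q of RTT. Median UMIs per cell were close between samples for TAM_C1q (13182.5 in RTT and 13586 in RTT_ROSA26), TAM_cycling (19669 and 20411.5), Ctsk_Macro (16793 and 19418) and Macro (9252 and 8421.5), and lower in RTT_ROSA26 for TAM_Spp1 (10499 and 7803). Of the 33368 cells, 98 barcodes occurred in more than 1 load or sample and 75 in more than 1 sample, and 0 occurred more than once in 1 load. The 10 marker genes of TAM_Spp1, TAM_cycling, Ctsk_Macro and Macro were each highest in their own type in both samples. TAM_C1q was less distinct by its markers, of which 6 of 10 in RTT and 3 of 10 in RTT_ROSA26 were highest there. In RTT_ROSA26 the summed TAM_C1q markers reached 41383 CPM in TAM_C1q and 41521 CPM in Macro. Macro is led by Ccl8, Retnla, Clec10a and Lyve1, genes known from tissue-resident macrophages, and Ctsk_Macro by Ctsk, Mmp9 and Acp5, genes of the bone-resorbing osteoclast. Markers of T and NK cells summed to at most 13.9 CPM in any type of either sample, and mast cell markers to at most 4.74 CPM.

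The mix of macrophage types differed most in its dividing part. TAM_cycling held 873 cells in RTT, 12.9% of the 5 types (exact 95% interval 12.1 to 13.7, and 12.4 to 13.4 over the loads), and 1834 cells in RTT_ROSA26, 30.01% (28.9 to 31.2, loads 28.5 to 31.6). TAM_C1q made up 50.4% in RTT and 36.8% in RTT_ROSA26, and TAM_Spp1 made up 30.4% and 24.5%. The smaller types were Ctsk_Macro, with 329 cells (4.86%) in RTT and 401 (6.56%) in RTT_ROSA26, and Macro, with 99 (1.46%) and 130 (2.13%). The ranges over loads did not overlap between the samples for TAM_C1q, TAM_Spp1, TAM_cycling and Ctsk_Macro, and overlapped for Macro (1.01 to 1.98 and 1.91 to 2.33).

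**Figure D1:**
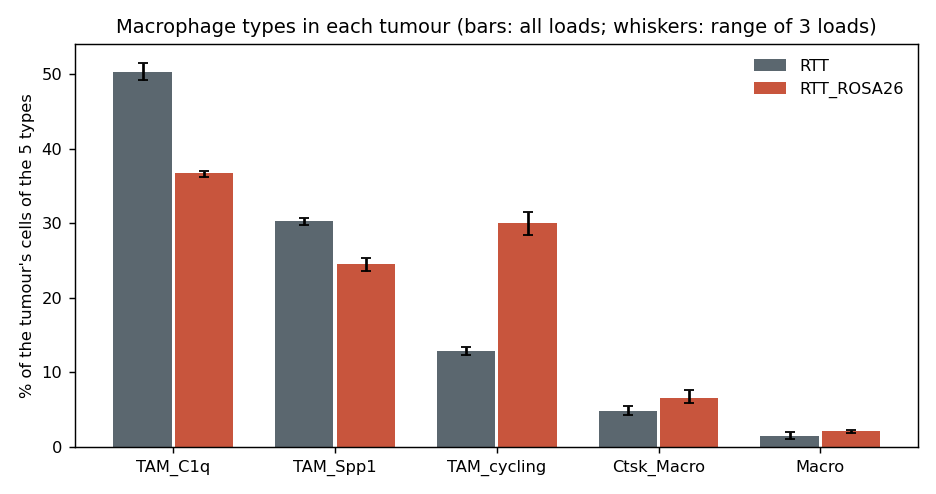
Share of each macrophage type among the sample's cells of the 5 types (y axis, percent), with a bar per sample and whiskers for the range of the 3 loads. TAM_cycling stands at 12.9% in RTT and 30.01% in RTT_ROSA26, with whiskers far apart, while TAM_C1q and TAM_Spp1 are the larger share in RTT.

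Few genes differed by 2-fold within a type, and in 4 types more were lower than higher in RTT_ROSA26, while the direction in Macro depended on the setting. In TAM_C1q, 7 of 2590 genes were past 2-fold higher (0.27%) and 14 past 2-fold lower (0.541%). In TAM_Spp1, 8 of 2413 genes were higher (0.332%) and 19 lower (0.787%), and in TAM_cycling 2 of 2780 were higher (0.0719%) and 18 lower (0.647%). Most of the genes past 2-fold in Ctsk_Macro were lower, 76 of 2604 (2.92%) against 3 higher (0.115%). Macro, the type with the fewest cells, had 46 of 2890 higher (1.59%) and 60 lower (2.08%). That order turned with a minimum of 20 CPM, which gave 181 higher and 115 lower in Macro, and without load 2, which gave 51 and 48, whereas TMM factors gave 34 and 75. Without load 3 the higher genes numbered 5 in TAM_Spp1 and 12 in Ctsk_Macro, and without load 2 those of Ctsk_Macro numbered 6. The median log2 ratio over all genes that averaged 10 CPM or more lay between 0.01 and 0.06 in the 5 types.

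A small set of genes stood apart one way in all 5 types. Among the 1895 genes that reached 50 CPM in every type in the higher sample, the 10 whose highest ratio was lowest included Irf1, Gbp2, Ly6a and AW112010, all known to be induced by interferon, along with Cd38, Fcgr4, Fabp5, Ms4a6b, Pmvk and Gm47283. Irf1, the transcription factor interferon regulatory factor 1, reached 97.95 CPM in RTT (94.3 to 102 over the loads) and 27.5 CPM in RTT_ROSA26 (23.8 to 32.4), a log2 ratio of -1.79, in TAM_C1q. In TAM_Spp1 it reached 96.8 and 27.8 CPM, in TAM_cycling 93.2 and 29.7, in Ctsk_Macro 73.7 and 21.7 and in Macro 210.4 and 108, RTT first. The level in RTT was thus above that in RTT_ROSA26 in every type and load, with log2 ratios of -1.76, -1.62, -1.72 and -0.95 in the same order. In RTT_PTGS12KO, Irf1 stood at 206 CPM in TAM_C1q and 225 CPM in TAM_cycling, and in NTT, which holds only 12 TAM_C1q and 79 TAM_cycling cells, at 211 and 223 CPM.

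AW112010, annotated as a long intergenic RNA, had among the widest gaps. It reached 530.3 CPM in RTT (508 to 551 over the loads) and 98.9 CPM in RTT_ROSA26 (84.6 to 107), a log2 ratio of -2.41, in TAM_Spp1, with a 95% interval of the counts of -2.50 to -2.34. The log2 ratio was -1.55 in TAM_C1q, -2.21 in TAM_cycling, -1.13 in Ctsk_Macro and -1.57 in Macro, lower in RTT_ROSA26 in each. Ly6a, a surface protein of the Ly6 family, stood at 263 CPM in RTT and 63.2 CPM in RTT_ROSA26, a log2 ratio of -2.04 (-2.30 to -1.92 over the loads), in TAM_cycling, and at 1812 and 543 CPM (log2 ratio -1.74) in Macro, the type in which it was highest. Its gap was smaller in TAM_C1q (90.7 and 59.7 CPM, log2 ratio -0.59). Gbp2, a guanylate-binding protein of cell-autonomous defence, stood at 189 CPM in RTT and 39.1 CPM in RTT_ROSA26, a log2 ratio of -2.25 (-3.29 to -1.53 over the loads), in Ctsk_Macro, and in Macro its loads ran from 224 to 354 CPM and 153 to 234 CPM, which overlap.

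The other genes of this set have different roles. Cd38, an enzyme that consumes NAD, was lowest relative to RTT in Ctsk_Macro (61.8 and 8.15 CPM, log2 ratio -2.78) and differed less in TAM_C1q (204 and 121 CPM, log2 ratio -0.75). Its level in RTT_PTGS12KO was 61.4 CPM in TAM_C1q, below both. Fabp5, a fatty acid-binding protein, stood at 3209 and 1866 CPM (log2 ratio -0.78) in TAM_C1q and 1492 and 425 CPM (log2 ratio -1.81) in Ctsk_Macro. Fcgr4, an activating receptor for antibody, stood at 241 and 110.2 CPM (log2 ratio -1.12) in TAM_Spp1. Gm47283, annotated as protein coding at the pseudoautosomal end of chromosome Y, stood at 109.5 and 40.03 CPM (log2 ratio -1.43) in TAM_cycling. Xist, which marks cells with an inactive X chromosome, reached 593 and 573 CPM in TAM_C1q, and Ddx3y of chromosome Y had 2 and 1 UMIs there and 0 in the other 4 types.

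On the higher side the shifts were smaller. Ckb, the brain-type creatine kinase, was the widest of the 10 and reached 69.7 CPM in RTT (69.2 to 70.2 over the loads) and 167 CPM in RTT_ROSA26 (153 to 178), a log2 ratio of 1.25, in TAM_C1q, and 102 and 215 CPM (log2 ratio 1.07) in TAM_cycling. In Macro its loads overlapped (log2 ratio 0.30). Slamf9, a surface receptor of the SLAM family, stood at 41.2 and 80.1 CPM (log2 ratio 0.94) in TAM_C1q. The other 8 were Cox20, Eef1g, Hmgn1, Cebpz, Flna, Cct8, Mrpl21 and Psmd12, which serve respiration, translation, chromatin, the cytoskeleton and protein folding or breakdown, and none of them passed 2-fold in any type. Eef1g, a subunit of a translation elongation factor, was the widest of these in TAM_C1q, at 231 and 354 CPM (log2 ratio 0.61).

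**Figure D2:**
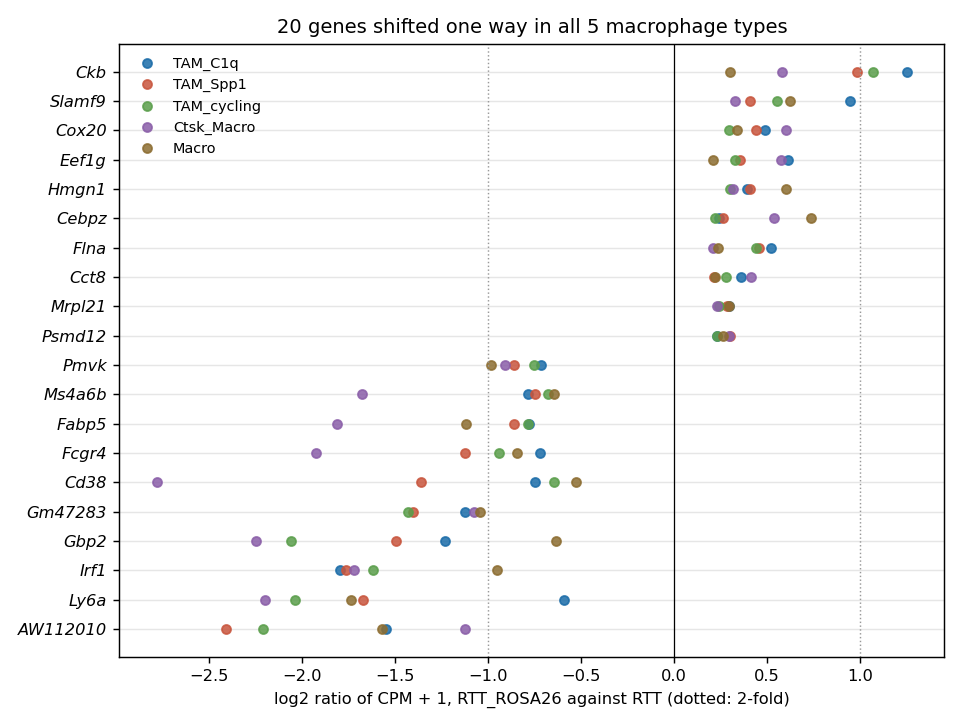
Log2 ratio of CPM + 1, RTT_ROSA26 against RTT (x axis), for the 20 genes with the highest lowest ratio or the lowest highest ratio over the types (y axis), with a point per type and dotted lines at 2-fold. Irf1, AW112010 and Gm47283 lie at or past the lower 2-fold line in nearly every type, while the 10 higher genes lie mostly between 0 and the upper line.

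Promoters of Irf1 and AW112010 from the shared set, and of Cxcl1, Cxcl2 and Ch25h described further on, are shown for where known motif letters lie in them, and were picked because they hold a match. Of the 112 named genes, 90 matched a promoter of the RefSeq annotation of GRCm38.p6 (250 bases before to 50 after the start), and both strands were searched. The GAS motif of interferon-responsive promoters was searched as TTCNNNGAA and occurs in 8.30% of all 32851 promoters, an NF-kB form as GGANTTTCC (1.25%) and the cAMP response element as TGACGTCA (1.79%). The GAS letters and this NF-kB form were chosen after the values were seen. Over the 114 promoters of the 90 genes, the GAS letters and this NF-kB form each occur in 7 and the cAMP response element in 2. Other letters searched were AP-1 as TGANTCA (7.81% of all promoters), part of a heat-shock element as GAANNTTC (7.86%), the E-box as CACGTG (7.15%) and another NF-kB form as GGGACTTTC (0.353%), and none of these occurs in the 5 windows shown. A further RefSeq promoter of Irf1 without a match is not shown. Capitals mark the match, which is a description of letters and not a measured binding site. The windows are Irf1 at chr11:53769764-53770063 on the plus strand, AW112010 at chr19:11050517-11050816 on the minus strand, Cxcl1 at chr5:90890995-90891294 and Cxcl2 at chr5:90903649-90903948 on the plus strand, and Ch25h at chr19:34475099-34475398 on the minus strand.
Irf1: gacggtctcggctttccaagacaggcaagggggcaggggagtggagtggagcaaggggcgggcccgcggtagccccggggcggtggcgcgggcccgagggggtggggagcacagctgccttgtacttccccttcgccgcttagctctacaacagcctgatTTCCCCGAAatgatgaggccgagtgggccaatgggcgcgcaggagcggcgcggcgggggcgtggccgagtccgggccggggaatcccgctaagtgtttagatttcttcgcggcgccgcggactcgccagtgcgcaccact
AW112010: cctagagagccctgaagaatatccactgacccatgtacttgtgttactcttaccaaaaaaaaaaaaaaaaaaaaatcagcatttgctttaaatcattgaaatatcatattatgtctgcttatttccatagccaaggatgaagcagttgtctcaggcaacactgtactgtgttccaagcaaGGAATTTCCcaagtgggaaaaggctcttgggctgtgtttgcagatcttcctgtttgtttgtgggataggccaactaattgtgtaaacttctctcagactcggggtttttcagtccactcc
Cxcl1: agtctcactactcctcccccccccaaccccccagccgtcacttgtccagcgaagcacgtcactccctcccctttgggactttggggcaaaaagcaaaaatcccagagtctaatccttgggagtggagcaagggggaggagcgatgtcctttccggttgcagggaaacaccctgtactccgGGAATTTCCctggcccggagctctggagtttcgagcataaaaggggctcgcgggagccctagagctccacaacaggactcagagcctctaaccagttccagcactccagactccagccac
Cxcl2: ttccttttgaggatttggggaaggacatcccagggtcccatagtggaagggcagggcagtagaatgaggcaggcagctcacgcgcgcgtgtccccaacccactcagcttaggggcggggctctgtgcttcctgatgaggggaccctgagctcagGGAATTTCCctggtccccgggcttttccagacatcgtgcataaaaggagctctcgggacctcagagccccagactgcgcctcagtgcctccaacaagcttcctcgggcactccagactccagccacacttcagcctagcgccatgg
Ch25h: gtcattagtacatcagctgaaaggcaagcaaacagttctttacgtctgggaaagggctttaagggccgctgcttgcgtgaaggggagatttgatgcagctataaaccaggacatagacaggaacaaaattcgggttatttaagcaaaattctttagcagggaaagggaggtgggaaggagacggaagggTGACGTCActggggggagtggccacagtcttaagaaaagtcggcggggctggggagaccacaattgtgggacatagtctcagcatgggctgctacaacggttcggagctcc

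In Irf1 the first base of the match lies at -90 from the start, in AW112010 and Cxcl1 the same 9 letters lie at -70, in Cxcl2 they lie at -96, and in Ch25h the match lies at -61. The AW112010 window belongs to the RefSeq start, which lies inside the longer GENCODE gene. The levels of Cxcl1, Cxcl2 and Ch25h follow with the cytokines and the genes of single types.

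The list of interferon-stimulated genes, which holds Gbp2 and Ly6a of the shared set, was mostly lower in RTT_ROSA26. In TAM_C1q 28 of 32 were lower, with a median log2 ratio of -0.32 (-0.39 to -0.32 over the loads), and in TAM_Spp1 24 of 29, with a median of -0.43 (-0.53 to -0.32, and -0.22 with no minimum CPM). In TAM_cycling 29 of 32 listed genes with at least 10 CPM were lower, 9 past 2-fold, with a median log2 ratio of -0.70 (-0.86 to -0.59 over the loads). Over all genes averaging 10 CPM or more in TAM_cycling 0.524% were past 2-fold lower. Monocyte markers were lower there as well, 5 of 6 with a median of -0.55 and a summed level of 404 and 284 CPM, and their part was not tested. In Ctsk_Macro 29 of 29 were lower, 13 past 2-fold against 2.03% of all genes at that level, with a median of -0.99 (-1.33 to -0.71). Other macrophage genes were lower in Ctsk_Macro with it, namely 10 of 10 pan-macrophage markers (median -1.33, summed level 23464 and 8630.4 CPM) and 10 of 10 TAM_C1q markers (median -1.44), and the median mitochondrial share was 4.53% and 3.65%. Their part in the result was not tested. Over all genes of at least that level, 47.01% were lower in TAM_C1q, 39.3% in TAM_Spp1, 40.8% in TAM_cycling and 48.2% in Ctsk_Macro. In Macro the list was closer to even, with 25 of 44 lower against 43.9% of all genes, and a median of -0.08 (-0.37 to 0.11). Iigp1, an interferon-induced GTPase, stood at 52.1 and 10.9 CPM (log2 ratio -2.16) in TAM_cycling. Some members did not share the gap, among them Bst2 (tetherin), at 405 and 413 CPM (log2 ratio 0.03) in TAM_C1q.

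Stress genes differed in direction from group to group. The immediate early genes were lower in RTT_ROSA26 in Macro, where 26 of 30 were lower and 8 past 2-fold, with a median log2 ratio of -0.46 (-0.65 to -0.33 over the loads). Over all genes with at least 10 CPM, 43.9% were lower in Macro and 2.1% past 2-fold lower. Other markers differed in Macro with it, and their part was not tested. Monocyte markers were lower (8 of 10, median -0.94). Neutrophil markers summed to 192 and 523 CPM, with loads that overlapped (158 to 221 and 128 to 1092 CPM). In TAM_C1q 25 of 30 were lower, none past 2-fold, with a median of -0.28 (-0.30 to -0.17), against 47.01% of all genes. In TAM_cycling 21 of 29 were lower (median -0.09) against 40.8% of all genes, and in Ctsk_Macro 19 of 27 (median -0.12, and -0.02 without load 2) against 48.2%. In TAM_Spp1 15 were higher and 15 lower, against 39.3% of all genes lower, although summed immediate early RNA was high there in both samples (9467 and 9397 CPM).

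Egr1, an early growth response transcription factor, stood at 1379 CPM in RTT (979 to 1650.3 over the loads) and 517 CPM in RTT_ROSA26 (419 to 608), a log2 ratio of -1.41, in Macro. There the loads of RTT lay above those of RTT_ROSA26 throughout. In TAM_C1q it stood at 216 and 139 CPM (log2 ratio -0.63), and in TAM_Spp1 its loads overlapped (190.3 and 177 CPM). Fos, a subunit of AP-1, stood at 1987 and 1169 CPM (log2 ratio -0.76) in Macro and 1628 and 1607 CPM (log2 ratio -0.02) in TAM_Spp1. Dusp2, a phosphatase that turns off MAP kinases, stood at 100.3 and 35.2 CPM (log2 ratio -1.48) in Macro, and Ier3, an early response gene, was lower by the mean over the 5 types, with 1043 and 710.5 CPM (log2 ratio -0.55) in TAM_C1q. Atf3 went the other way in the large types, at 209 CPM in RTT and 317 CPM in RTT_ROSA26, a log2 ratio of 0.60 (0.37 to 0.78 over the loads), in TAM_Spp1 and 214 and 294 CPM (log2 ratio 0.45) in TAM_C1q.

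Heat-shock chaperones differed little. The list medians lay between 0.05 and 0.10 in TAM_C1q, TAM_Spp1, TAM_cycling and Ctsk_Macro, and at -0.11 in Macro. Dnajb1, a co-chaperone of HSP70, stood at 118 CPM in RTT and 50.6 CPM in RTT_ROSA26, a log2 ratio of -1.21 (-1.43 to -0.55 over the loads), in Macro, one of 2 of 23 members past 2-fold lower there, against 2.1% of all genes. Hspa1a, the inducible HSP70, stood at 474 and 343 CPM (log2 ratio -0.46) in TAM_C1q and 365 and 267 CPM (log2 ratio -0.45) in TAM_cycling. The mitochondrial chaperonin went the other way, with Hspe1 at 315 and 392 CPM (log2 ratio 0.31) and Hspd1 at 116 and 147 CPM (log2 ratio 0.34) in TAM_C1q.

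The ATF4 and endoplasmic reticulum stress list had medians of 0.12 in TAM_C1q, 0.15 in TAM_Spp1, 0.11 in TAM_cycling, -0.17 in Ctsk_Macro and -0.03 in Macro. They were 0.07 in TAM_C1q without load 1 and -0.06 in Ctsk_Macro without load 3. Higher members numbered 15 of 24 in TAM_C1q, 16 of 21 in TAM_Spp1 and 14 of 23 in TAM_cycling, against 52.99%, 60.7% and 59.2% of all genes, so the count in TAM_cycling was near that of all genes. Mthfd2, a mitochondrial folate enzyme and ATF4 target named here after its values were seen, lay under the 50 CPM minimum and was past 2-fold in TAM_C1q (11.2 and 25.9 CPM, log2 ratio 1.14) and TAM_Spp1 (21.9 and 49.2 CPM, log2 ratio 1.14). Slc7a11, the cystine transporter that feeds glutathione synthesis, went the other way, at 78.3 and 43.2 CPM (log2 ratio -0.84), 197 and 133 CPM (log2 ratio -0.57) and 72.1 and 36.7 CPM (log2 ratio -0.95) in TAM_C1q, TAM_Spp1 and TAM_cycling. Atf4 itself stood at 73.5 and 83.9 CPM (log2 ratio 0.19) in TAM_C1q and the HSP70 of the endoplasmic reticulum, Hspa5, at 636 and 782 CPM (log2 ratio 0.30) in TAM_Spp1.

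Oxidative stress genes and hypoxia genes had medians near 0 in every type, from -0.09 to 0.04 and from -0.07 to 0.06. Single members still differed. Gsr, which regenerates reduced glutathione, stood at 76.00 CPM in RTT (71.4 to 79.8 over the loads) and 34.7 CPM in RTT_ROSA26 (32.2 to 36.3), a log2 ratio of -1.11, in TAM_C1q. It was also lower in TAM_cycling (80.9 and 35.4 CPM, log2 ratio -1.17) and TAM_Spp1 (170.4 and 115 CPM, log2 ratio -0.57), and alike in Ctsk_Macro (235 and 242 CPM), where it was highest. Gpx1, a glutathione peroxidase, was higher by 0.38, 0.34, 0.28 and 0.40 on the log2 scale in TAM_C1q, TAM_Spp1, TAM_cycling and Ctsk_Macro, and not in Macro (-0.09). Vegfa, the angiogenic factor induced by low oxygen, was highest in TAM_Spp1 and alike there, at 459.7 and 469 CPM.

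**Figure D3:**
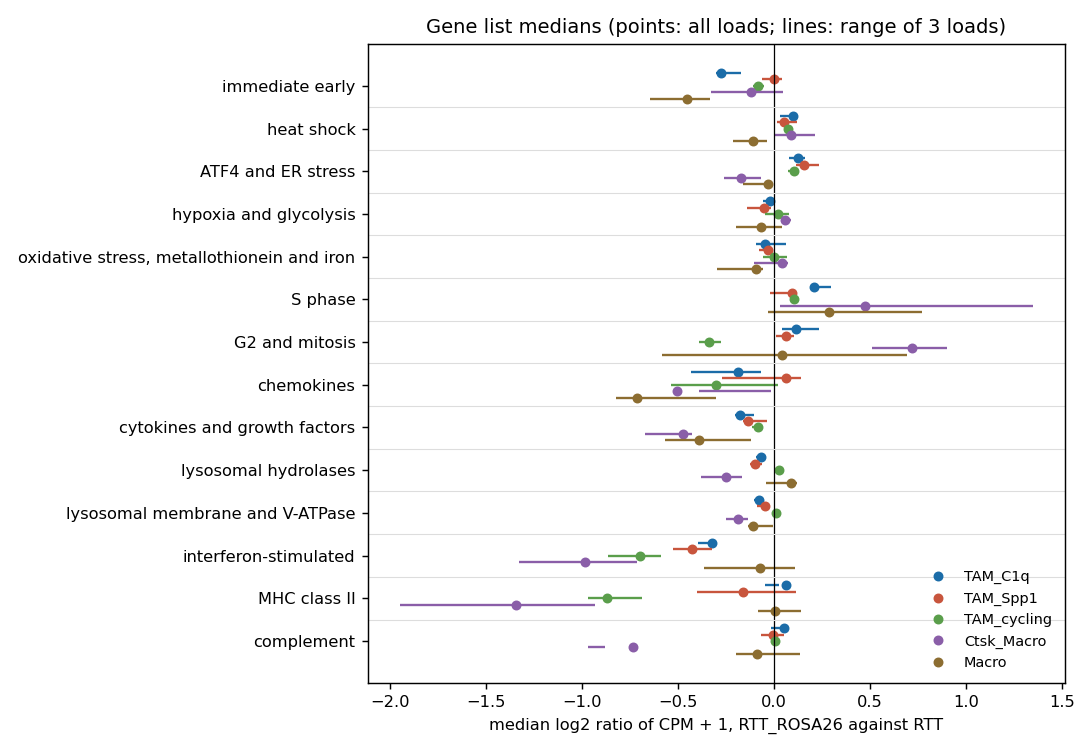
Median log2 ratio of CPM + 1, RTT_ROSA26 against RTT (x axis), of each gene list (y axis) in the 5 types, with points for all loads together and lines for the range of the 3 loads' own medians. Immediate early genes in Macro (-0.46) and G2 and mitosis genes in TAM_cycling (-0.34) lie left of 0, and the mitosis genes of Ctsk_Macro (0.72) lie right. For some lists, such as chemokines in Ctsk_Macro, the point falls outside the line, which spans the medians taken in each load on its own.

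G2 and mitosis genes differed in opposite directions in TAM_cycling and Ctsk_Macro, whereas S phase genes leaned higher in RTT_ROSA26 in both. In TAM_cycling, the type defined by proliferation, 53 of 53 listed G2 and mitosis genes were lower in RTT_ROSA26, with a median log2 ratio of -0.34 (-0.39 to -0.27 over the loads) and none past 2-fold. S phase genes there leaned higher, 37 of 45, with a median of 0.10 (0.10 to 0.12 over the loads, and 0.08 to 0.18 over the settings run). Over all genes with at least 10 CPM in TAM_cycling, 59.2% were higher and 40.8% lower. The summed level of the mitosis list was 6741 CPM in RTT (6599.9 to 6864 over the loads) and 5365 CPM in RTT_ROSA26 (5239 to 5469.5), so the larger share of TAM_cycling cells in RTT_ROSA26 went with less mitotic RNA per UMI in them. The type is itself named from cycling genes, so its boundary and these levels cannot be told apart.

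Among single genes of TAM_cycling, Cenpf, a kinetochore protein, stood at 131 CPM in RTT and 80.9 CPM in RTT_ROSA26, a log2 ratio of -0.69 (-0.94 to -0.47 over the loads). Ube2c, which helps degrade mitotic cyclins, stood at 301 CPM in RTT and 213 CPM in RTT_ROSA26, a log2 ratio of -0.50 (-0.63 to -0.36 over the loads). Top2a, which untangles DNA for mitosis, stood at 350.4 and 283 CPM (log2 ratio -0.31), and Mki67, the proliferation marker, at 187 and 145 CPM (log2 ratio -0.37). The replication genes lay on the other side, with Mcm6, a subunit of the replicative helicase, at 126 and 152 CPM (log2 ratio 0.26) and Pcna, the sliding clamp, at 252 and 301 CPM (log2 ratio 0.26).

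In Ctsk_Macro all 33 measured G2 and mitosis genes were higher in RTT_ROSA26, 6 past 2-fold and 21 past 1.5-fold, with a median of 0.72 (0.51 to 0.90 over the loads). S phase genes were higher in 29 of 30, with a median of 0.47, but the loads ran from 0.03 to 1.35 and the median was 0.14 without load 1 and 0.74 without load 3. Pan-macrophage markers (10 of 10 lower, median -1.33) and the mitochondrial share (4.53% and 3.65%) differed in these cells too, and their part was not tested. Over all genes with at least 10 CPM, 51.8% were higher in that type and 2.23% were past 1.5-fold higher, and 0.29% past 2-fold higher. There Ube2c stood at 37.8 CPM in RTT (23.98 to 50.4 over the loads) and 90.5 CPM in RTT_ROSA26 (69.9 to 132), a log2 ratio of 1.24, and Mcm6 at 31.3 CPM in RTT and 64.5 CPM in RTT_ROSA26, a log2 ratio of 1.02 (0.38 to 2.05 over the loads). Cdk1, the kinase that drives entry into mitosis, stood at 27.01 and 47.5 CPM (log2 ratio 0.79). The summed mitosis level in Ctsk_Macro, 1193 and 1889.6 CPM, stayed below that of TAM_cycling in both samples. The non-cycling TAM_C1q leaned the same way for S phase (14 of 17 higher, median 0.21) and mitosis (14 of 16, median 0.12), against 52.99% of all genes higher, at summed levels of at most 739 CPM. Over the settings run these medians of TAM_C1q ranged from 0.16 to 0.37 and from 0.08 to 0.27.

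**Figure D4:**
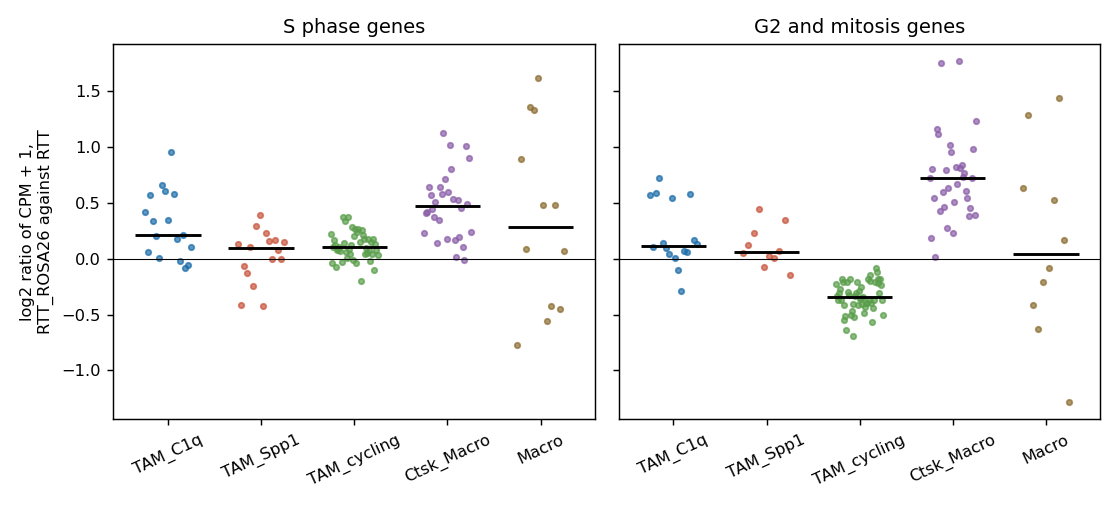
Log2 ratio of CPM + 1, RTT_ROSA26 against RTT (y axis), of each S phase gene (left) and each G2 and mitosis gene (right) in the 5 macrophage types (x axis). In TAM_cycling the 53 mitosis genes all lie below 0, and in Ctsk_Macro the 33 measured ones all lie above it.

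Chemokine genes differed in both directions. The chemokine list as a whole had 10 of 18 lower in TAM_C1q (median -0.19, loads -0.43 to -0.07), 8 of 19 in TAM_Spp1 (0.06, loads -0.27 to 0.14) and 11 of 19 in TAM_cycling (-0.30, loads -0.54 to 0.02). It had 11 of 16 lower in Ctsk_Macro (-0.50, loads -0.39 to -0.01) and 14 of 19 in Macro (-0.71, loads -0.83 to -0.30), 8 of the latter past 2-fold against 2.1% of all genes. Monocyte markers were lower in Macro too (8 of 10, median -0.94), and their part was not tested. The all-gene shares lower were 47.01%, 39.3%, 40.8%, 48.2% and 43.9% in the same order. With no minimum CPM the chemokine median was 0.02 in TAM_cycling, without load 2 it was -0.14 in Ctsk_Macro, and without load 3 it was -0.13 in TAM_cycling and -0.32 in TAM_C1q. Over all settings run it ranged from -0.32 to -0.02 in TAM_C1q. Cxcl1, a ligand of CXCR2, was lower in all 5 types. It stood at 338 CPM in RTT (298 to 369 over the loads) and 117 CPM in RTT_ROSA26 (99.3 to 126), a log2 ratio of -1.52, in TAM_C1q, at 481 CPM in RTT and 259 CPM in RTT_ROSA26, a log2 ratio of -0.89 (-1.44 to -0.60 over the loads), in TAM_Spp1 and at 225 and 41.5 CPM (log2 ratio -2.41) in Macro. In Ctsk_Macro it was low in both, 24.2 and 7.92 CPM, and the loads overlapped. Cxcl2, which shares that receptor, was far more abundant, at 6550.4 and 5378 CPM (log2 ratio -0.28) in TAM_Spp1, 2914 and 1638 CPM (log2 ratio -0.83) in TAM_C1q and 4248 and 1118 CPM (log2 ratio -1.93) in Macro. In RTT_PTGS12KO, Cxcl1 stood at 36.9 CPM and Cxcl2 at 1168 CPM in TAM_C1q.

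Ccl2 and Ccl7, ligands of CCR2 that recruit monocytes, lie close together on chromosome 11 (82035571 to 82037453 and 82045712 to 82047525, GRCm38, plus strand). In TAM_Spp1, Ccl2 stood at 221 CPM in RTT (205 to 232 over the loads) and 934 CPM in RTT_ROSA26 (846 to 1002), a log2 ratio of 2.08, and Ccl7 at 75.97 CPM in RTT (72.1 to 82.7 over the loads) and 409 CPM in RTT_ROSA26 (393 to 434), a log2 ratio of 2.41. They were higher by less in TAM_C1q (Ccl2 552 and 1056 CPM, log2 ratio 0.93, and Ccl7 376 and 682 CPM, log2 ratio 0.86) and TAM_cycling (Ccl2 788 and 1440.0 CPM, log2 ratio 0.87, and Ccl7 445 and 825 CPM, log2 ratio 0.89). In Macro the direction was opposite, with Ccl2 at 1003 CPM in RTT and 356 CPM in RTT_ROSA26, a log2 ratio of -1.49 (-2.02 to -0.63 over the loads), and Ccl7 at 957 CPM in RTT and 321 CPM in RTT_ROSA26, a log2 ratio of -1.57 (-1.79 to -1.45 over the loads). Ccl12, another gene of that cluster, went with them, at 612 and 1139 CPM (log2 ratio 0.90) in TAM_C1q and 582 and 299 CPM (log2 ratio -0.96) in Macro.

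Neutrophils, which are not a main source of these chemokines, give a level for reference. Free RNA was not measured, and neutrophil levels differed between samples that shared droplets, so this level is not shown to be background. Over 146 neutrophils per sample, Ccl2 stood at 298 and 658 CPM and Ccl7 at 121 and 393 CPM, RTT first. In CPM, the TAM_Spp1 level of Ccl7 was thus below the neutrophil level in RTT and close to it in RTT_ROSA26. That of Ccl2 was below it in RTT and above it in RTT_ROSA26. CPM is a share of the UMIs and the cells differ in depth, so this order need not hold per cell. A UMI of Ccl7 was present in 21.6% and 39.1% of TAM_Spp1 cells, and in 26.03% and 47.9% of neutrophils, at median depths of 10499 and 7803 UMIs in TAM_Spp1 and 7381 and 11085.5 UMIs in neutrophils. The Ccl7 of TAM_Spp1 was thus not set apart from that of neutrophils, and the part of free RNA or mixed droplets was not tested. In Macro both genes lay above the neutrophil level in RTT and below it in RTT_ROSA26, again in CPM. The monocyte genes Plac8 (74.7 and 216 CPM, log2 ratio 1.52) and Ly6c2 (38.5 and 80.9 CPM, log2 ratio 1.05) were also higher in TAM_Spp1. Ly6c2 has a near-identical neighbour, Ly6c1, which makes its count uncertain. The whole monocyte list summed to 1274 CPM (1209 to 1316 over the loads) and 1619.7 CPM (1504 to 1728), with 5 of 8 measured members higher, near the 60.7% of all genes that were higher there, and no member at 0 in either sample. Its median was 0.21 (-0.04 to 0.35 over the loads). Its part in the chemokine result was not tested.

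The list of cytokines and growth factors leaned lower in RTT_ROSA26 in 4 types and was even in TAM_cycling. In it 24 of 35 were lower in TAM_C1q (median -0.18, and -0.09 without load 1), 17 of 28 in TAM_Spp1 (median -0.14, and -0.09 without load 1), 15 of 30 in TAM_cycling (median -0.08), 14 of 17 in Ctsk_Macro (median -0.47) and 20 of 31 in Macro (median -0.39, loads -0.57 to -0.12, and 0.04 without load 2). The pan-macrophage markers of Ctsk_Macro were lower with the list (10 of 10, median -1.33), and their part was not tested. Over all genes the shares lower were 47.01%, 39.3%, 40.8%, 48.2% and 43.9% in the order of the types above. Tnf, tumour necrosis factor, stood at 178 CPM in RTT and 89.5 CPM in RTT_ROSA26, a log2 ratio of -0.98 (-1.13 to -0.89 over the loads), in TAM_C1q, at 178 and 109 CPM (log2 ratio -0.70) in TAM_Spp1 and at 164 and 43.3 CPM (log2 ratio -1.89) in Macro. Its loads did not overlap between samples in any of the 5 types. Il1b, interleukin 1 beta, was most abundant in TAM_Spp1, at 3172 and 2370.2 CPM (log2 ratio -0.42), and stood at 889 and 532 CPM (log2 ratio -0.74) in TAM_cycling. Il10, which restrains macrophage activation, stood at 55.1 CPM in RTT (51.9 to 58.5 over the loads) and 16.2 CPM in RTT_ROSA26 (13.05 to 18.3), a log2 ratio of -1.71, in TAM_C1q. Tnfsf9, the ligand of the costimulatory receptor 4-1BB, stood at 118 and 66.3 CPM (log2 ratio -0.83) in TAM_C1q and 129.6 and 37.02 CPM (log2 ratio -1.78) in Macro. Il18bp, the soluble inhibitor of interleukin 18 and an interferon-induced gene, was low but lower again in RTT_ROSA26, at 30.8 and 8.80 CPM (log2 ratio -1.70) in TAM_cycling.

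Other members of the list were higher. Pdgfa, platelet-derived growth factor A, stood at 84.5 CPM in RTT (72.9 to 102 over the loads) and 151 CPM in RTT_ROSA26 (145 to 158), a log2 ratio of 0.83, in Ctsk_Macro, where it was most abundant, and was higher by 0.58, 0.75 and 0.84 on the log2 scale in TAM_C1q, TAM_Spp1 and TAM_cycling. Gdf3, a member of the TGF-beta family singled out after its values were seen, stood at 5.21 and 36.03 CPM (log2 ratio 2.58) in TAM_C1q and 6.48 and 33.2 CPM (log2 ratio 2.19) in TAM_cycling. It lies under the 50 CPM minimum, and the added 1 CPM narrows its ratio. In RTT_PTGS12KO it stood at 11.1 CPM in TAM_C1q. The chemokines Ccl3 and Ccl4 differed little in the large types, with Ccl4 at 776 and 897 CPM (log2 ratio 0.21) in TAM_C1q. Ptgs2, whose enzyme makes prostaglandin precursors, stood at 719 and 607 CPM (log2 ratio -0.24) in TAM_Spp1, and Ptgs1 at 91.4 and 68.8 CPM (log2 ratio -0.40) in TAM_C1q.

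**Figure D5:**
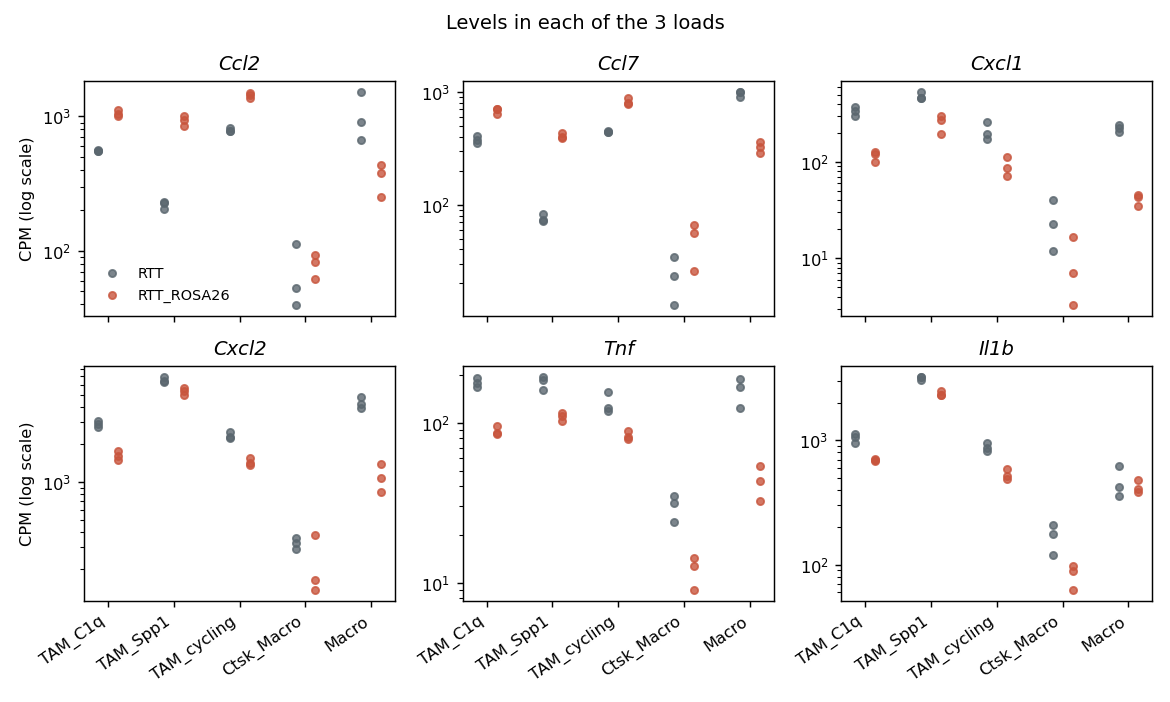
CPM (log scale, y axis) of single cytokine and chemokine genes in each of the 3 loads (points) of RTT and RTT_ROSA26, by macrophage type (x axis). For Ccl2 and Ccl7 the RTT_ROSA26 points lie above the RTT points in TAM_Spp1 and below them in Macro, and for Cxcl1 they lie below in TAM_C1q, TAM_Spp1, TAM_cycling and Macro.

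Lysosome genes had medians near 0 in 4 types and lower ones in Ctsk_Macro of RTT_ROSA26, while most listed members were also lower in TAM_C1q and TAM_Spp1. Medians of the hydrolase list were -0.07 in TAM_C1q, -0.10 in TAM_Spp1, 0.03 in TAM_cycling and 0.09 in Macro. Lower members numbered 30 of 48 in TAM_C1q and 32 of 47 in TAM_Spp1, against 47.01% and 39.3% of all genes. They numbered 22 of 48 in TAM_cycling and 20 of 52 in Macro, against 40.8% and 43.9%. The summed hydrolase level in TAM_C1q was 39387.5 CPM in RTT (37816 to 40499 over the loads) and 33013 CPM in RTT_ROSA26 (31620 to 34666). In Ctsk_Macro 44 of 51 hydrolases were lower, 2 past 2-fold, with a median of -0.25 (-0.38 to -0.17 over the loads, and -0.16 without load 1). Over all genes 48.2% were lower and 2.03% past 2-fold lower, so the count past 2-fold was near that of all genes. The pan-macrophage markers were lower there too, 10 of 10 with a median of -1.33, and their part in the result was not tested. Lyz2, lysozyme, and Ctsl, the protease cathepsin L, were those past 2-fold. There Ctsl stood at 2616 CPM in RTT (2272 to 3088 over the loads) and 1173 CPM in RTT_ROSA26 (1041 to 1296), a log2 ratio of -1.16, and it stood at 2541 and 2093 CPM (log2 ratio -0.28) in TAM_C1q. Lyz2 stood at 3562 and 1424 CPM (log2 ratio -1.32) in Ctsk_Macro and at 17121 and 12164 CPM (log2 ratio -0.49) in TAM_C1q. Lgmn (1094 and 581 CPM, log2 ratio -0.91), Ctss (749.8 and 402 CPM, log2 ratio -0.90) and Ctsb (1330.1 and 853 CPM, log2 ratio -0.64), further lysosomal proteases named after their values were seen, were lower in Ctsk_Macro too.

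The defining protease of Ctsk_Macro did not share that gap. Ctsk, the collagen-cleaving cathepsin K of osteoclasts, stood at 14593 CPM in RTT (14441 to 14710.3 over the loads) and 13932 CPM in RTT_ROSA26 (12359.5 to 14798), a log2 ratio of -0.07 with overlapping loads. Acp5, tartrate-resistant acid phosphatase, stood at 9596 and 8699.6 CPM (log2 ratio -0.14), and Mmp9, a secreted gelatinase, at 6578 and 6134 CPM (log2 ratio -0.10). Among lysosomal membrane and proton pump genes the Ctsk_Macro median was -0.19 (-0.25 to -0.13), and the medians of the other types lay between -0.11 and 0.01. Lower members numbered 29 of 44 in Ctsk_Macro, 34 of 44 in TAM_C1q and 31 of 41 in TAM_Spp1, against 48.2%, 47.01% and 39.3% of all genes. In TAM_cycling 20 of 43 were lower and in Macro 27 of 43, against 40.8% and 43.9%. Npc2, which passes cholesterol out of the lysosome, was lower in all 5 types, with 3391 and 2084 CPM (log2 ratio -0.70) in Ctsk_Macro and 1520.4 and 1150.2 CPM (log2 ratio -0.40) in TAM_Spp1.

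Some hydrolases were higher. They numbered 18 of 48 in TAM_C1q, 15 of 47 in TAM_Spp1 and 26 of 48 in TAM_cycling. In Ctsk_Macro 7 of 51 were higher, and in Macro 32 of 52. Over all genes the shares higher were 52.99%, 60.7%, 59.2%, 51.8% and 56.1% in the same order. Ctsd, the aspartic protease cathepsin D, stood at 1115 CPM in RTT and 1629 CPM in RTT_ROSA26, a log2 ratio of 0.55 (0.52 to 0.60 over the loads), in TAM_cycling and 1752 and 2008 CPM (log2 ratio 0.20) in TAM_C1q. Lipa, lysosomal acid lipase, stood at 49.1 and 58.4 CPM (log2 ratio 0.25) in TAM_C1q.

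The genes with the widest gaps within single types had few functions in common. In TAM_C1q, Ch25h, which makes the oxysterol 25-hydroxycholesterol and whose promoter is shown above, stood at 30.3 CPM in RTT (29.4 to 31.97 over the loads) and 98.3 CPM in RTT_ROSA26 (91.1 to 106), a log2 ratio of 1.67, with a 95% interval of the counts of 1.61 to 1.79. It was also past 2-fold in TAM_cycling (52.3 and 119 CPM, log2 ratio 1.18) and low in TAM_Spp1 in both (2.29 and 3.57 CPM). Tmem176a (18.1 and 55.9 CPM, log2 ratio 1.57) and Tmem176b (27.6 and 83.1 CPM, log2 ratio 1.56), ion channel genes that overlap on opposite strands, were higher in TAM_C1q, and in Macro, where they were most abundant, they were alike (557 and 551 CPM for Tmem176b). Pmp22, a membrane protein known from myelin, stood at 21.00 and 51.2 CPM (log2 ratio 1.24) in TAM_C1q. In TAM_Spp1 the higher genes after the chemokines were Timp1, an inhibitor of metalloproteinases (15.6 and 56.4 CPM, log2 ratio 1.79), Plac8 and Slpi, a protease inhibitor (74.2 and 193 CPM, log2 ratio 1.37).

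On the lower side, Hbb-bs, a beta globin gene of red cells, gave the widest ratio in both TAM_C1q (-2.32) and TAM_Spp1 (-4.20), but 1 cell held 92.2% of its UMIs in TAM_Spp1 of RTT and 1 held 34.3% in TAM_C1q of RTT. Without the richest cell of each sample its log2 ratio was -0.79 in TAM_Spp1 and -2.76 in TAM_C1q, where the loads ran from -5.02 to 0.01. The red cell list summed to 202 and 45.1 CPM in TAM_C1q and 131 and 5.18 CPM in TAM_Spp1. Jaml, an adhesion molecule, stood at 104 CPM in RTT and 27.1 CPM in RTT_ROSA26, a log2 ratio of -1.91 (-2.12 to -1.82 over the loads), in TAM_Spp1. Ppbp, a platelet chemokine, stood at 56.9 and 17.1 CPM (log2 ratio -1.68) in TAM_C1q.

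In Ctsk_Macro the lower genes included general macrophage genes. All 10 TAM_C1q markers were lower there, 7 past 2-fold, against 48.2% and 2.03% of all genes, with a median log2 ratio of -1.44 (-1.60 to -1.09 over the loads) and a summed level of 24037 CPM in RTT and 8105 CPM in RTT_ROSA26. These markers also leaned lower, by less, in TAM_C1q (8 of 10, median -0.20) and TAM_Spp1 (7 of 10, median -0.32), against 47.01% and 39.3% of all genes. In TAM_cycling 6 of 10 were lower (median -0.06) and in Macro 5 of 10 (median 0.00). Within Ctsk_Macro, Apoe, apolipoprotein E, stood at 17185 and 5633 CPM (log2 ratio -1.61) and C1qb, a chain of the complement starter C1q, at 1739 and 543 CPM (log2 ratio -1.68). The same genes in neutrophils, which are not known as their source, reached 12386 and 10980.5 and 2219 and 3017 CPM. In CPM the Ctsk_Macro levels thus lay below those of neutrophils in RTT_ROSA26, and C1qb did so in RTT as well. Median depths were 16793 and 19418 UMIs in Ctsk_Macro and 7381 and 11085.5 in neutrophils, so this order need not hold per cell. The median share of mitochondrial UMIs in Ctsk_Macro cells was 4.53% in RTT and 3.65% in RTT_ROSA26. The part of free RNA, mixed droplets or RNA quality in this result was not tested. Mgst1, a microsomal glutathione transferase, stood at 77.2 and 16.8 CPM (log2 ratio -2.14). The higher genes past 2-fold were Ube2c, Mcm6 and Ppp1r1a, an inhibitor of protein phosphatase 1 (32.5 and 68.8 CPM, log2 ratio 1.06).

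In Macro the genes with the highest ratios were carried by few cells. Prg4, the lubricant proteoglycan known from serous and joint surfaces, had 0 UMIs in RTT and 433 in RTT_ROSA26, at least 134-fold higher against a floor of 3 counts in RTT, and all of them came from 5 cells. Alox15, a lipoxygenase of resident peritoneal macrophages, had 0 and 105 UMIs in 5 cells (at least 32.4-fold), and Cxcl13, a B cell chemokine, 0 and 67 in 4 cells (at least 20.7-fold). Mucl1 had 303 UMIs, 99.7% of them in 1 cell (at least 93.6-fold, and a Mucl1 log2 ratio of 0.00 without load 3). Cells with a UMI of Prg4 were 0 of 99 in RTT, which by a limit of 3 counts allows a share of up to 3.03%, and 5 of 130 in RTT_ROSA26, 3.85% (exact 95% interval 1.26 to 8.75), against 0.685% of the neutrophils of RTT and 0 of 146 in RTT_ROSA26, which allows up to 2.05%, at the depths given above.

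Ccl24, a chemokine for eosinophils, was spread more widely, with 20 UMIs in 13 cells of RTT and 406 in 60 cells of RTT_ROSA26. It stood at 19.5 CPM in RTT (16.5 to 21.7 over the loads) and 367 CPM in RTT_ROSA26 (131 to 559), a log2 ratio of 4.17, and the loads did not overlap. A UMI of it was found in 13.1% and 46.2% of Macro cells, and in 2.05% of neutrophils in each sample, at median depths of 9252 and 8421.5 UMIs in Macro. On the lower side, 1 cell of RTT held 73.7% of the UMIs of Ccl5, 64.7% of those of Ly6c2 and 56.6% of those of Chil3, and the log2 ratios were -2.97, -2.16 and -1.95. Without the richest cell of each sample they were -1.26, -0.91 and -1.10, and without load 3 the Ly6c2 log2 ratio within Macro was 0.10. The monocyte list in Macro summed to 1844 CPM in RTT (1460 to 2306 over the loads) and 1418 CPM in RTT_ROSA26 (1223 to 1636), with 8 of 10 members lower. Neutrophil markers summed to 192 CPM (158 to 221) and 523 CPM (128 to 1092). Dendritic cell markers summed to 38.97 CPM (28.5 to 49.7) and 133 CPM (45.8 to 205.8). The loads overlapped for each of these sums. How far other cells within Macro bear on its gene levels was not tested.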

How the data were processed

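CD45+ cells were profiled by droplet sequencing of 3' transcript ends. The authors deposited 1 matrix of raw UMI counts for 32285 genes with a sample and a cell type name for each cell. Per the study's methods, counts came from cellranger multi with mm10, cells were kept if over 1000 genes were detected and mitochondrial UMIs stayed under 15% and ribosomal ones under 40%, and types were named in Seurat after integration with other experiments (the submitters' processing notes give Seurat 4.3.0). All deposited cells of the 5 types were used. The lowest number of genes in a cell was 1001. The suffix of a cell's barcode was read as its load, which the labels do not state. No doublet caller was run, since the multiplexing oligos remove doublets between samples, and the 5% of cells with the most UMIs were left out as an alternative instead.

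UMIs were summed per sample, type and load with Python 3.11.15, numpy 2.4.6, scipy 1.17.1 and pandas 2.3.3, and divided by the total of all genes. Depth ran from 1026420 to 49512753 UMIs per type and sample. Log2 ratios used CPM + 1. The 95% interval of a ratio is the exact conditional binomial interval of the raw counts, that of a share is exact Clopper-Pearson, the limit for a share of 0 is 3 counts over the cells, and all cover counting error only. List medians used members averaging 10 CPM or more over both samples. Named genes were the 5 highest and 5 lowest ratios of each type and the 10 genes with the highest lowest and the 10 with the lowest highest ratio over the types, all taken from genes that reached 50 CPM in the higher sample. To these came the 3 highest and 3 lowest mean ratios of each stress, cycling, cytokine and lysosome list, and Xist, Ddx3y, Ptgs1 and Ptgs2 as checks. Further genes are named in the text as values of the lists or as chosen after their values were seen, such as Fos, Ccl12, Bst2, Cdk1, Cenpf, Top2a, Mki67, Il18bp, Hspa5, Ctsk, Mmp9, Apoe and C1qb. Some named genes are not reported here. Members and lists were chosen with earlier results of these data known.

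Alternatives were a pseudocount of 10 CPM, a minimum of 20 CPM (none for the lists), TMM factors from edgeR 4.0.16 in R 4.3.3, totals without ribosomal and mitochondrial genes, cells with over 1500 genes and under 10% mitochondrial UMIs, equal weight per cell, 2-fold in each of the 3 loads, and each load left out. Leaving out the richest cell of each gene was added after seeing the data. The steps were tested on simulated data. Gene positions were read from GENCODE vM21 for GRCm38, the build the study names as mm10, and promoters from RefSeq (GRCm38.p6). Plots were drawn with matplotlib 3.10.9.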

Additional observations from a re-analysis of the deposited data

Results flagged for a closer look

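The monocyte-attracting chemokines differed in opposite directions in different macrophage types of the same samples. The log2 ratio of Ccl2, RTT_ROSA26 against RTT, was higher in TAM_Spp1 than in Macro by 3.57, and that of Ccl7 by 3.98. All 3 loads were higher in RTT_ROSA26 within TAM_Spp1 and all 3 were lower within Macro. The loads are parts of 1 sample each, so the difference between the types was not tested. Ccl2 in TAM_Spp1 lay below the level of neutrophils in RTT (221 and 298 CPM) and above it in RTT_ROSA26 (934 and 658 CPM). Ccl7 in TAM_Spp1 lay below the level of neutrophils in RTT and near it in RTT_ROSA26, and Macro held 99 and 130 cells. In Macro of RTT_ROSA26, Ccl2 (356 CPM) and Ccl7 (321 CPM) lay below the neutrophil levels of 658 and 393 CPM. These orders are in CPM and the cells differ in depth, so they need not hold per cell. Neutrophil levels were not shown to be background. The monocyte list had 5 of 8 members higher in TAM_Spp1 and 8 of 10 lower in Macro, and its part was not tested.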

How the results depend on the processing

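No paired analysis was possible because the groups hold single samples. Counts of genes past 2-fold are given here as higher and lower in RTT_ROSA26. At a minimum of 20 CPM they were 11 and 32 in TAM_C1q, 8 and 36 in TAM_cycling, 13 and 121 in Ctsk_Macro and 181 and 115 in Macro, and 23 were higher in TAM_Spp1. With a pseudocount of 10 CPM, 4 were higher in TAM_C1q, 1 in Ctsk_Macro, and 30 and 36 were counted in Macro. When 2-fold was required in each load, 9 were lower in TAM_C1q, 5 higher in TAM_Spp1, 0 and 43 were left in Ctsk_Macro and 10 and 12 in Macro. Totals without ribosomal and mitochondrial genes gave 14 higher in TAM_Spp1, 4 in TAM_cycling and 8 in Ctsk_Macro, and equal weight per cell gave 5 higher in Ctsk_Macro. Leaving out 1 load at a time gave 6 to 8 and 14 to 16 in TAM_C1q, 5 to 10 and 19 to 21 in TAM_Spp1, 2 to 3 and 15 to 21 in TAM_cycling, 2 to 12 and 73 to 80 in Ctsk_Macro and 51 to 69 and 48 to 78 in Macro. The other 94 counts stayed within 1.5 times the value reported. The cause was not tested. With no minimum CPM the median of matrix genes turned to 0.0116 in TAM_C1q and 0.0135 in TAM_cycling. Leaving out 1 load at a time, the median of cytokines and growth factors in Macro ran from -0.313 to 0.0424 (without load 2), the Ly6c2 log2 ratio within Macro from -3.34 to 0.10 (without load 3) and the Mucl1 log2 ratio within Macro from 0.00 (without load 3) to 8.65. Of 85 ratios of named genes past 2-fold, between 74 and 84 remained so under each setting that was run for them. Depth limits Macro most, where 3 counts of a gene stand for several CPM, and 1 sample per side limits all.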

Other observations

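Antigen presentation genes differed by type. All 6 measured MHC class II genes were lower in RTT_ROSA26 in TAM_cycling, with a median log2 ratio of -0.87 (-0.97 to -0.69 over the loads), and all 6 in Ctsk_Macro, with a median of -1.35 (-1.95 to -0.93). In TAM_Spp1 6 of 7 were lower, with a median of -0.16 (-0.40 to 0.11, and -0.03 without load 2), and in TAM_C1q (0.06) and Macro (0.01) the medians were near 0. Monocyte markers were lower with them in TAM_cycling, 5 of 6 with a median of -0.55, and pan-macrophage markers in Ctsk_Macro, 10 of 10, and their part was not tested. Over all genes the shares lower were 40.8% in TAM_cycling, 48.2% in Ctsk_Macro and 39.3% in TAM_Spp1. H2-Ab1, a class II chain, stood at 626 and 347 CPM (log2 ratio -0.85) in TAM_cycling and at 4161 and 3662 CPM (log2 ratio -0.18) in Macro, RTT first. Complement genes were lower in Ctsk_Macro, 10 of 10 with a median of -0.74, among them C1q chains at or below the neutrophil level in CPM. These genes were named after their values were seen.

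Of 25 measured lipid genes in TAM_C1q, 10 were higher and 15 lower in RTT_ROSA26, against 47.01% of all genes lower, with a median of -0.24 (-0.26 to -0.22 over the loads, -0.14 without load 2 and -0.08 with no minimum CPM), and the genes given next were picked after their values were seen. Idi1 and Hmgcs1, enzymes of cholesterol synthesis, stood at 20.7 and 9.36 CPM (log2 ratio -1.07) and 35.1 and 23.7 CPM (log2 ratio -0.55) in TAM_C1q. The exporter Abcg1 and the transfer protein Pltp stood on the other side, at 38.6 and 69.2 CPM (log2 ratio 0.82) and 46.3 and 94.5 CPM (log2 ratio 1.02) there. In Macro the levels of Pltp were alike, 1471 and 1517 CPM. Matrix genes had a median of -0.33 in TAM_C1q, which turned to 0.0116 with no minimum CPM. In Ctsk_Macro their median was -0.63 (-0.82 to -0.33 over the loads, and -0.25 with no minimum CPM). There 13 of 16 were lower, against 48.2% of all genes, beside the pan-macrophage markers. Fn1, fibronectin, was higher in RTT_ROSA26, at 1438 and 2136 CPM (log2 ratio 0.57) in TAM_Spp1 and 900.2 and 1826 CPM (log2 ratio 1.02) in Macro.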
